A study of Homo sapiens with 10 samples.

Results

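Transcripts of 31 genes of sterol and fatty acid synthesis were followed in HAP1 cells that lacked the DNA glycosylases MUTYH and OGG1 or were exposed to hydrogen peroxide (H2O2). The genes were chosen by name, with earlier results of these data known, and all 31 were present among the 59453 genes of both count tables. They comprised 8 genes of the mevalonate pathway up to squalene, 10 genes from squalene to cholesterol, 6 genes of SREBP regulation and sterol transport, and 7 genes of fatty acid synthesis. HAP1 is a near-haploid adherent line that descends from the leukaemia line KBM-7. The 4 genotypes were wild type (WT), MUTYH knockout, OGG1 knockout and the double knockout of both genes (DKO), each with 2 libraries from 2 clones: WT clones 2 and 11, MUTYH knockout clones 7 and 8, OGG1 knockout clones 1 and 22, and DKO clones 4 and 14. A further 2 libraries came from WT clones 2 and 11 taken 24 hours after H2O2 exposure. All knockouts were made by CRISPR-Cas9, and both DKO clones were made from a single OGG1 knockout clone, so these clones share an ancestor.

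Cells make cholesterol from acetyl-CoA by way of mevalonate and squalene. When sterols in the endoplasmic reticulum run low, the escort protein SCAP carries the membrane-bound SREBP transcription factors to the Golgi, where proteases free the part that enters the nucleus and switches on genes of sterol and fatty acid synthesis. When sterols are plentiful, the INSIG proteins hold SCAP in the endoplasmic reticulum. SREBF2 encodes SREBP2, which acts mainly on sterol genes, and SREBF1 encodes SREBP1, whose best-known targets are genes of fatty acid synthesis. INSIG1 and both SREBF genes are themselves SREBP targets.

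Total counts ranged from 22225091 to 22674964 per library, and each of the 31 genes passed the filter on low counts, the smallest count being 109 for CYP51A1. The targeted genes were read first. OGG1 stood at 13.1 and 12.3 CPM (counts scaled to library size with TMM factors) in WT clones 11 and 2, at 1.22 in OGG1 knockout clone 1, at 11.3 in OGG1 knockout clone 22, and at 9.68 and 9.73 in DKO clones 4 and 14. MUTYH stood at 4.65 and 3.64 CPM in its knockout clones 7 and 8, at 4.77 and 2.18 CPM in DKO clones 4 and 14, and at 4.69 and 3.95 CPM in WT clones 2 and 11. Small insertions or deletions need not lower a transcript, so these levels do not check most of the labels. The study reports that it checked the knockouts at the protein level, by targeted mass spectrometry, in every clone. The blood cell markers PTPRC, SPI1 and MPO stayed between 0 and 0.138 CPM, while VIM, a marker of adherent mesenchymal cells, stood at 197 CPM or more in every library. The summed level of 7 blood cell markers was 2.67 to 18.8 CPM over the 10 libraries, most of it KIT, and that of 3 steroid or liver cell markers was 0.402 to 1.15 CPM. The summed level of 5 adherent cell markers was 233 to 411 CPM in untreated WT, 402 to 423 CPM in DKO and 326 to 568 CPM after H2O2. The untreated libraries also fell into 2 sides of 4 that hold 1 clone of each genotype, with WT 2, MUTYH knockout 8, OGG1 knockout 22 and DKO 14 on one side, a division found in these data and not given by the labels. Mitochondrial genes took 3.75% to 5.02% of counts on that side, 5.14% to 7.46% on the other, and 2.995% and 3.38% in the H2O2 libraries.

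The proximal promoters of the genes carried motifs of the factors that act with SREBP. RefSeq promoter windows (GRCh38.p14, 250 bases before to 50 after each start) were matched by symbol for 27 of the 31 genes, all but FASN, ACAT2, SQLE and FDFT1, which gave 37 windows. TCACNCCAC, a consensus form of the sterol regulatory element that SREBPs bind, was found on either strand in 1 of the 37 windows (2.70%), that of SREBF2, against 1.13% of all 35116 windows. Only these exact letters were searched, so elements with other letters or outside the windows were not counted. CCAAT, the box bound by NF-Y, was in 24 of them (64.9%) against 34.6% of all windows. GGGCGG, the box bound by Sp1, was in 33 (89.2%) against 45.0%, and the E-box CACGTG in 5 (13.5%) against 7.26%. Motifs were counted independently, so that matches of different motifs may share bases. A window counts once for a motif however many matches it holds, and a match describes the letters, not a bound site. The SREBF2 element is shown with the CCAAT boxes of SREBF2 and of the genes whose transcript differences are described next, read on the strand of the motif, with the motif in capitals and the distance given from the RefSeq start.
SREBF2 sterol element, chr22:41832962-41832990, plus strand, 133 bases upstream: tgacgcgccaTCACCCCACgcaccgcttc
SREBF2 CCAAT, chr22:41832987-41833015, minus strand, 106 bases upstream: ggctcatctcagCCAATgggcgagcgaag
INSIG1 CCAAT, chr7:155297696-155297724, minus strand, 170 bases upstream: aggcggccgcaaCCAATgggaggccggcg
MVD CCAAT, chr16:88663160-88663188, minus strand, 85 bases upstream: ggctcgcacgggCCAATcctgtggtagcg
MVK CCAAT, chr12:109573736-109573764, minus strand, 46 bases upstream: acttcaggccagCCAATcagagcgcgcga
HMGCS1 CCAAT, chr5:43313496-43313524, plus strand, 100 bases upstream: tggctcccacagCCAATcgcggccggtag
LSS CCAAT, chr21:46228908-46228936, plus strand, 150 bases upstream: acgcccacgcaaCCAATcagagcgccgcg
MSMO1 CCAAT, chr4:165327623-165327651, plus strand, 34 bases upstream: agctctcgcaggCCAATaacgacaggacg
DHCR7 CCAAT, chr11:71448425-71448453, plus strand, 48 bases upstream: agcgattgcctgCCAATcggaggcggacc
SCD CCAAT, chr10:100347035-100347063, plus strand, 186 bases upstream: aattcccttcggCCAATgacgagccggag
FADS2 CCAAT, chr11:61816397-61816425, plus strand, 5 bases downstream: tccgcaggacacCCAATcaccgggcaaca
The windows of SREBF1 (gene at chr17:17810399-17837002, minus strand, in GENCODE v44) and FADS1 (gene at chr11:61799627-61829318, minus strand) held GGGCGG and no CCAAT.

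The 3 most abundant members were genes of fatty acid synthesis. Per kilobase of exon, the median level over the 8 untreated libraries was 206 CPM per kb for SCD, the stearoyl-CoA desaturase that makes monounsaturated fatty acids. It was 124 CPM per kb for FASN, the fatty acid synthase, and 79.1 for ACLY, which makes cytosolic acetyl-CoA. The highest of the sterol pathway was FDFT1, squalene synthase, with 55.4 CPM per kb. SREBF2 stood at 40.2 and SREBF1 at 22.02 CPM per kb, and their ranges over the 8 libraries, 33.4 to 45.2 and 12.8 to 30.1, did not overlap. The lowest level was that of CYP51A1, the lanosterol demethylase, with 1.98 CPM per kb. Other genes overlap 74.1% of the exon bases of CYP51A1, 37.7% of HMGCS1 and 36.4% of EBP in GENCODE v44, on the same strand for EBP, on the other for HMGCS1 and on both for CYP51A1. How the counting treated strand and shared bases is not given in the sources used here, so levels of these 3 genes are uncertain. FADS1 and FADS2 overlap one another, and 5.57% and 5.11% of their exon bases lie under other genes.

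The members also varied among the untreated libraries. The median SD of log2 CPM over the 8 untreated libraries was 0.30 for the 31 genes and 0.20 for the 10709 genes at least as abundant as the lowest of them. INSIG1 and FADS2, the delta-6 desaturase of polyunsaturated fatty acids, had SDs of 0.52 each. The smallest SD was 0.10 for ACLY. Among mevalonate genes the SD was largest for MVD, mevalonate diphosphate decarboxylase, with 0.43 and smallest for FDPS, farnesyl diphosphate synthase, with 0.27. Among later sterol genes it ran from 0.14 for NSDHL, a sterol dehydrogenase, to 0.43 for CYP51A1, and among regulators SREBF2 had the smallest value with 0.16. These SDs cover genotype and clone together.

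**Figure D1:**
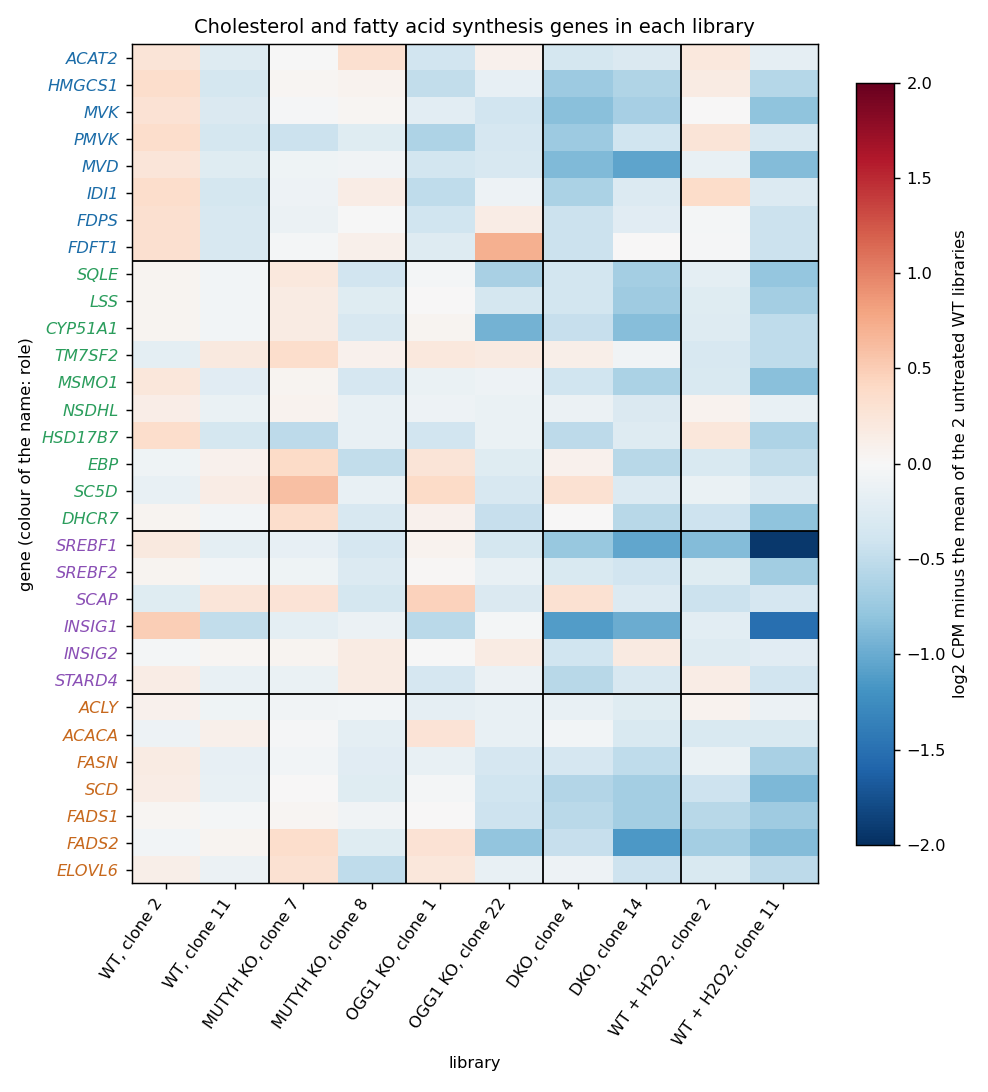
Log2 CPM of the 31 genes (rows, grouped by role) in the 10 libraries (columns), with the mean of the 2 untreated WT libraries subtracted from each gene. The DKO and H2O2 columns are mostly blue, and INSIG1 and SREBF1 are darkest in H2O2-exposed WT clone 11.

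Loss of MUTYH alone was compared with WT first. None of the 31 genes differed in edgeR's quasi-likelihood test at an unadjusted P of 0.05, where 1.06% of the 17881 genes tested were lower and 0.666% higher. The median log2 fold change of the 31 genes was -0.02, against 0.01 over all genes tested, and 19 of the 31 were below 0, against 47.0% of all genes. The smallest P was that of PMVK, phosphomevalonate kinase, at 23.4 and 26.6 CPM in MUTYH knockout against 40.5 and 24.6 CPM in WT clones 2 and 11 (log2 fold change -0.37, SE 0.26). HSD17B7, a sterol ketoreductase, followed with -0.35 (SE 0.27), and TM7SF2, a sterol reductase, with 0.23 (SE 0.19). The groups of PMVK overlapped, as they did for 29 of the 31 genes. Over all genes tested, both MUTYH knockout libraries lay below both WT libraries for 11.3% and above both for 10.1%. Adjusted p (Benjamini-Hochberg over all genes tested) was at least 0.9997 for every member.

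Loss of OGG1 alone gave a median of -0.16 for the 31 genes, against 0.01 over all genes, with 23 of 31 below 0, against 47.4% of all genes. Again none passed an unadjusted P of 0.05, where 1.35% of all genes were lower and 1.39% higher. The mevalonate genes lay lowest, with 7 of 8 below 0 and a median of -0.32. MVD stood at 54.1 ± 1.26 CPM (SD, n = 2) in OGG1 knockout, with both clones below the WT values of 58.2 and 81.9 CPM (log2 fold change -0.37, SE 0.18). PMVK differed by -0.51 (SE 0.26) and HMGCS1, the synthase that makes HMG-CoA, by -0.36 (SE 0.24), with overlapping groups. With the 2 sides of the libraries as a block, PMVK, MVD and IDI1, the isopentenyl diphosphate isomerase, were lower at that P by 0.48, 0.36 and 0.31 on the log2 scale, where 3.32% of all genes were lower, and the smallest adjusted p was 0.675 (PMVK). These sides were found in the same libraries, so P under this block may be too small. The result rests on single libraries. The median of the 31 genes was -0.30 without WT clone 11 and -0.03 without WT clone 2. Which members passed that P also shifted when 1 library was left out, and shares of all genes in those fits were not computed. Some cell type markers also differed in level. KIT, a blood cell marker, stood at 12.02 and 11.7 CPM in WT clones 11 and 2 and at 1.99 and 3.70 CPM in OGG1 knockout clones 1 and 22. KRT8, a keratin of adherent cells, stood at 17.6 and 8.54 CPM in the same WT clones and at 37.5 and 45.5 CPM in the knockout. The groups did not overlap for either gene. CD34 and CD33, also blood cell markers, were higher in the knockout, at low levels. In WT clones 11 and 2, CD34 stood at 0.177 and 0.134 CPM and CD33 at 0.0887 and 0.223 CPM. In OGG1 knockout clones 1 and 22, CD34 stood at 0.407 and 1.03 CPM and CD33 at 0.226 and 0.267 CPM. The summed level of the blood cell markers, most of it KIT, was 12.2 to 12.3 CPM in WT and 2.67 to 5.04 CPM in OGG1 knockout. The summed adherent cell markers were 423 to 504 CPM in the knockout. The part of these markers in the result was not tested.

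In DKO cells, 28 of the 31 sterol and fatty acid genes had a log2 fold change below 0, against 49.8% of all genes tested, and the median was -0.41 against 0.00 over all genes. TM7SF2, SC5D and SCAP lay above 0. The summed level of the 31 genes was 7963 and 6752 CPM in WT clones 2 and 11, and 5663 and 5031 CPM in DKO clones 4 and 14. At an unadjusted P of 0.05, 9 of 31 genes were lower, against 1.11% of all genes, and none was higher, against 1.83%. For 18 of 31 genes each DKO library was lower than each WT library, against 13.3% of all genes. None had a Benjamini-Hochberg adjusted p of 0.05 or less in edgeR, and DESeq2 gave 1, MVD (adjusted p = 0.0183). In bulk RNA, fewer cells that use a gene and less RNA per cell cannot be told apart. KIT, KRT8 and KRT18 also stood apart from WT in DKO clones 4 and 14, with KIT at 8.38 and 3.88 CPM and KRT8 at 43.01 and 43.7 CPM. KRT18 stood at 49.3 and 44.9 CPM there and at 34.5 and 27.6 CPM in WT clones 11 and 2. EPCAM (0.402 to 0.665 CPM in WT, 2.01 to 2.97 CPM in DKO) and CD34 (0.134 to 0.177 CPM and 0.654 to 1.04 CPM) were low in both. So was CD33 (0.0887 to 0.223 CPM and 0.225 to 0.262 CPM). CD34 and CD33 were higher in DKO, while KIT was lower. The summed blood cell markers were 4.84 to 9.86 CPM in DKO, and their part in the result was not tested.

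Of the mevalonate genes, all 8 were below 0 in DKO, and 3 passed that P. Values are given here for WT clones 2 and 11, MUTYH knockout clones 7 and 8, OGG1 knockout clones 1 and 22 and DKO clones 4 and 14, in that order. MVD stood at 81.9 and 58.2 CPM in WT, 65.0 and 66.0 in MUTYH knockout, a mean of 54.1 in OGG1 knockout, and 37.2 and 33.2 in DKO. Its 2 DKO values lay below those of the other 6 untreated libraries (log2 fold change against WT -0.98, SE 0.18). HMGCS1 stood at 317 and 195 CPM in WT, 256 and 262 in MUTYH knockout, 177 and 221 in OGG1 knockout, and 150 and 164 in DKO, where both values were again the lowest (log2 fold change -0.69, SE 0.24). MVK, mevalonate kinase, was at 41.2 and 27.6 CPM in WT and at 18.9 and 21.2 CPM in DKO (log2 fold change -0.77, SE 0.21). The WT clones of these 3 genes differed by more than the DKO clones did. FDFT1 had the smallest difference of the group, -0.22 (SE 0.34), and its 467.6 CPM in OGG1 knockout clone 22 was the highest of any library.

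From squalene to cholesterol, 8 of 10 genes were below 0 and 2 passed. LSS, lanosterol synthase, stood at 217 and 201 CPM in WT clones 2 and 11 and at 162 and 127 CPM in DKO clones 4 and 14 (log2 fold change -0.52, SE 0.21). MSMO1, a sterol methyl oxidase, stood at 126 and 92.8 CPM in WT and at 82.6 and 69.5 CPM in DKO (log2 fold change -0.51, SE 0.21). The groups did not overlap for either gene. SQLE, squalene epoxidase and a rate-limiting step of the pathway, stood at 239 and 221 CPM in WT, 266 and 176 in MUTYH knockout, 224 and 147 in OGG1 knockout, and 178 and 144 in DKO, which did not pass (log2 fold change -0.50, SE 0.27). TM7SF2 and SC5D, a sterol desaturase, lay at 0.02 and 0.05. NSDHL differed by -0.20 (SE 0.16) and CYP51A1 by -0.64 (SE 0.37), neither past the test.

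Among the regulators, INSIG1 and SREBF1 differed most. INSIG1 (chr7:155297776-155310235, plus strand) stood at 133 and 66.9 CPM in WT, 82.0 and 86.6 in MUTYH knockout, 65.3 and 92.3 in OGG1 knockout, and 43.7 and 47.4 in DKO. It was the only one of the 31 genes to pass the study's criterion for a differentially expressed gene, an unadjusted P of at most 0.05 with a log2 fold change beyond 1 in size (-1.12, SE 0.31), which 0.531% of all genes met as lower. SREBF1 stood at 248 and 190 CPM in WT, 193 and 173 in MUTYH knockout, 228 and 170 in OGG1 knockout, and 129 and 106 in DKO (log2 fold change -0.89, SE 0.22). For both genes the DKO values were the 2 lowest of the 8 untreated libraries. SREBF2 stood at 364 and 340 CPM in WT, 331 and 292 in MUTYH knockout, 356 and 316 in OGG1 knockout, and 286 and 269 in DKO, a difference of -0.33 (SE 0.15) that did not pass. SCAP and INSIG2 lay at 0.03 and -0.07, with overlapping groups.

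Fatty acid genes were all below 0, and 2 of 7 passed. SCD stood at 1380 and 1114 CPM in WT, 1253 and 1046 in MUTYH knockout, 1202 and 945 in OGG1 knockout, and 822 and 772 in DKO (log2 fold change -0.63, SE 0.21). FADS1, the delta-5 desaturase, stood at 323 and 305 CPM in WT and at 216 and 196 CPM in DKO (log2 fold change -0.59, SE 0.18). FASN stood at 1482 and 1174 CPM in WT, 1264 and 1133 in MUTYH knockout, 1185 and 1047 in OGG1 knockout, and 1044 and 931 in DKO. Its 2 DKO values were the lowest, with a difference from WT of -0.41 (SE 0.19) that did not pass. FADS2 stood at 575 and 620 CPM in WT, 765 and 506 in MUTYH knockout, 729 and 345 in OGG1 knockout, and 434 and 270 in DKO, which did not pass (-0.75, SE 0.40). The clones of FADS2 in each knockout differed by more than 160 CPM. ACLY differed by -0.18 (SE 0.14).

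The DKO result depended on which WT clone served as control. The median of the 31 genes was -0.27 without WT clone 2 and -0.57 without WT clone 11. INSIG1 no longer met the study's criterion without WT clone 2. The members that passed an unadjusted P of 0.05 also shifted when a WT or DKO clone was left out. Shares of all genes in those fits were not computed. With the 2 sides of the libraries as a block, 19 of 31 members were lower, against 3.37% of all genes, and the smallest adjusted p was 0.313 (MVD). Because the sides were found in these same libraries, P under this block may be too small, and the larger count is not added support.

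**Figure D2:**
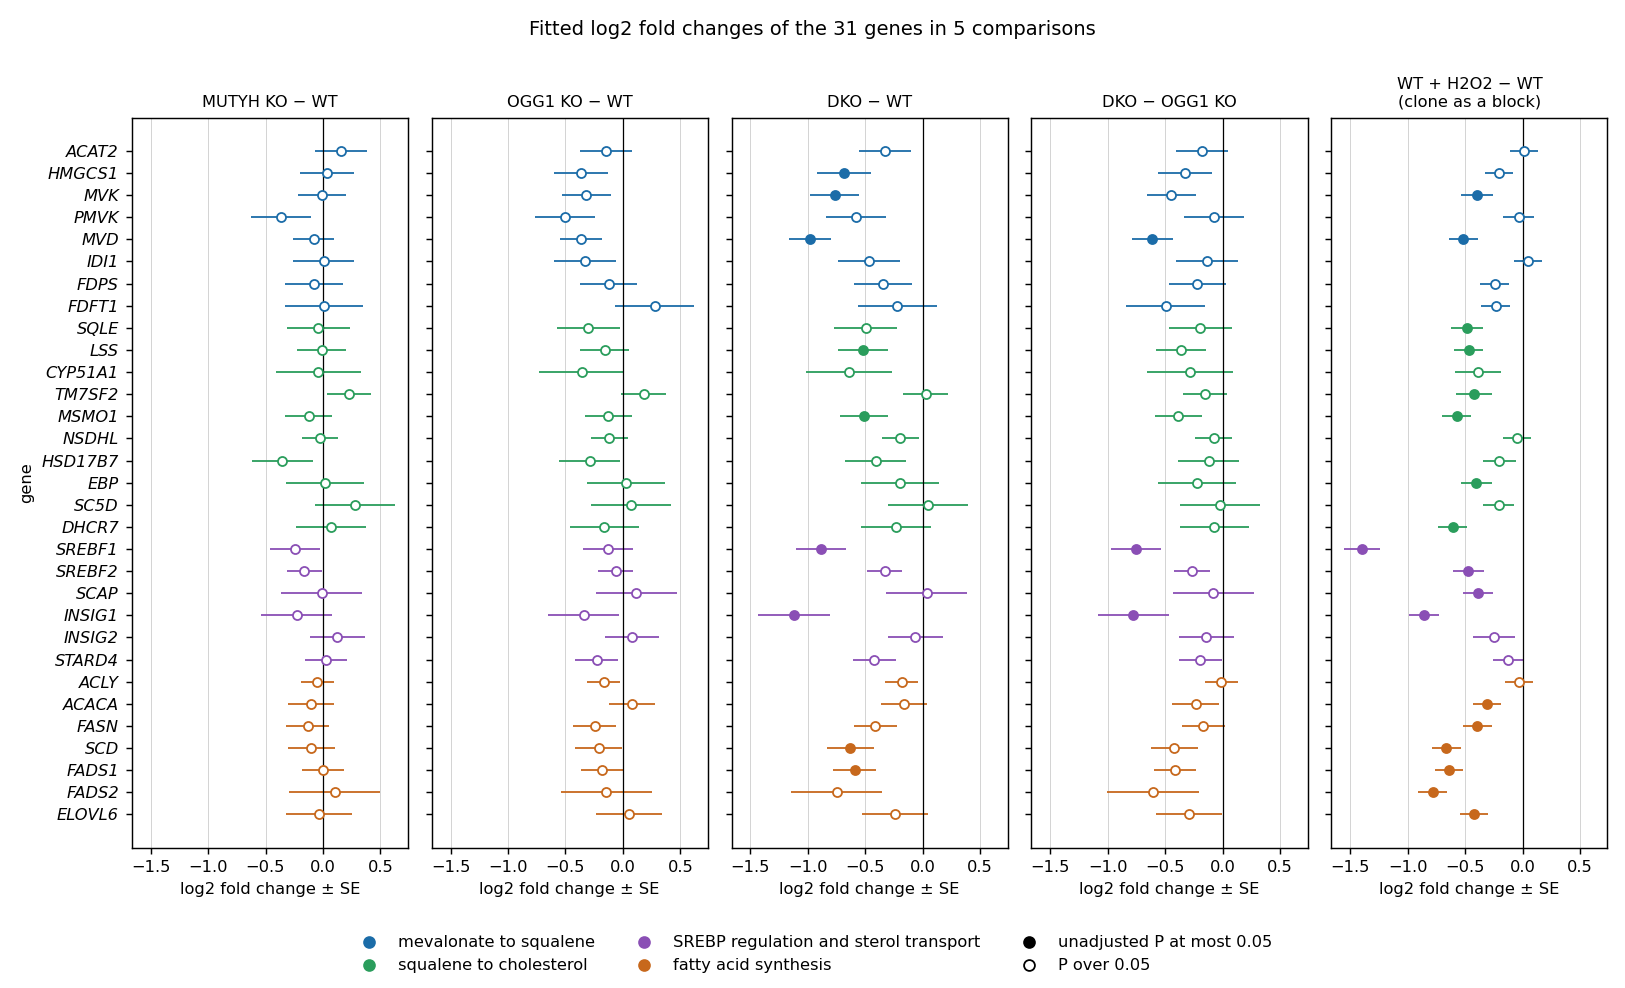
Fitted log2 fold changes with SE of the 31 genes (rows) in the comparisons of genotypes and, with clone as a block, of H2O2-exposed with untreated WT. Filled points have an unadjusted P of at most 0.05: none in the single knockouts, 9 in DKO against WT, 3 in DKO against OGG1 knockout and 18 after H2O2, all below 0.

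DKO cells were also set against OGG1 knockout cells, from one of whose clones they were made. The study's product number for that parent clone ends in 22, as the label of OGG1 knockout clone 22 does. The labels do not name the parent, and the OGG1 knockout group pools both clones. These fold changes use no WT library, but their errors come from the spread within all 4 untreated groups. All 31 genes lay below 0, against 52.4% of all genes tested, with a median of -0.23 against -0.01. At an unadjusted P of 0.05, 3 were lower, against 1.02% of all genes. These were SREBF1 (-0.76, SE 0.22), MVD (-0.61, SE 0.18) and INSIG1 (-0.78, SE 0.31). Both DKO libraries lay below both OGG1 knockout libraries for 12 members, against 12.3% of all genes. None had an adjusted p of 0.05 or less. With the sides as a block, 11 members were lower, against 3.71% of all genes. Without DKO clone 14 the 3 members no longer passed that P. The median of the 31 genes was -0.36 without OGG1 knockout clone 22 and -0.18 without OGG1 knockout clone 1.

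Differences among all 4 genotypes at once were found for 5 members at an unadjusted P of 0.05, against 2.64% of all genes. They were, from the smallest P up, MVD, SREBF1, MVK, INSIG1 and FADS1, and in all 5 the DKO libraries were the 2 lowest. With the sides as a block there were 13, against 7.47% of all genes. The difference that MUTYH loss made in OGG1 knockout cells less the one it made in WT cells, a contrast added after the data were seen, was below 0 for 28 of 31 members, with a median of -0.26 against -0.02 for all genes. No member passed an unadjusted P of 0.05 for it, and with the sides as a block MVD did (adjusted p = 0.699).

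**Figure D3:**
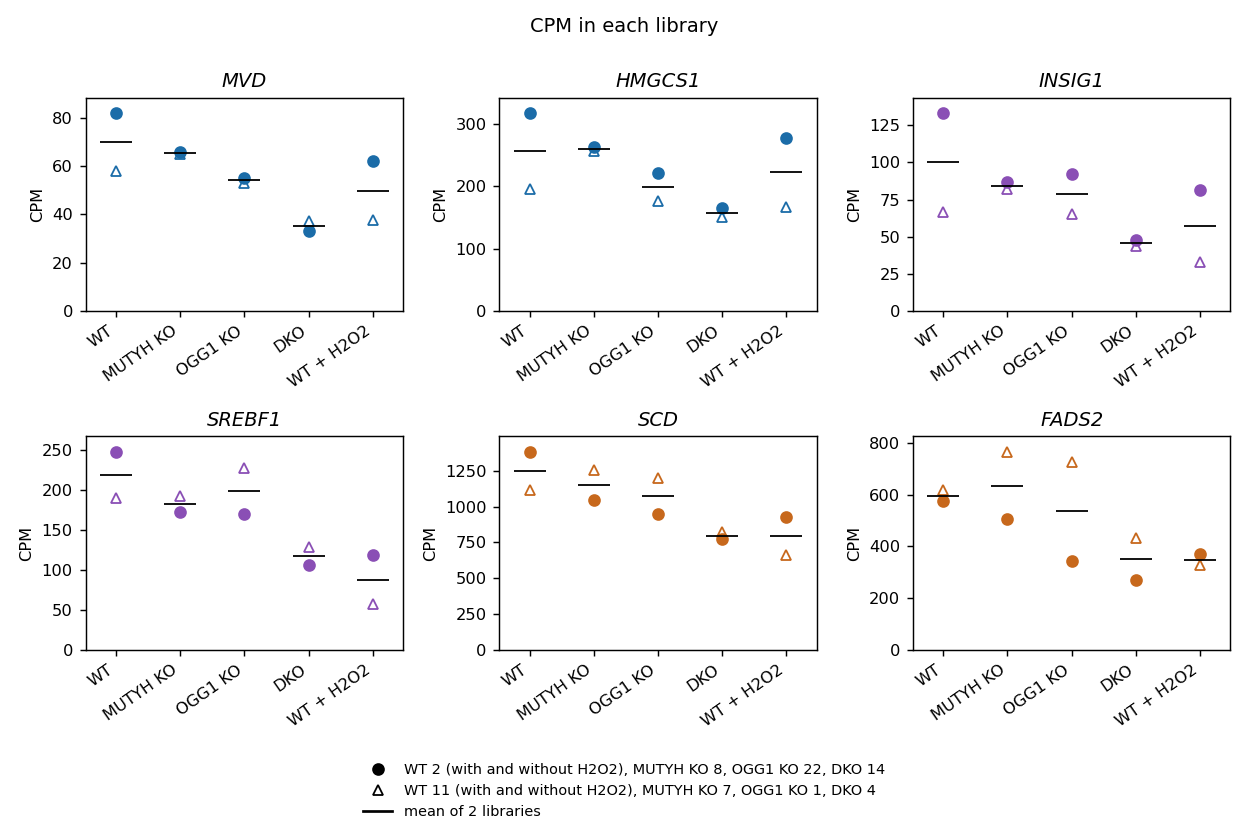
CPM (vertical axis, from 0) of MVD, HMGCS1, INSIG1, SREBF1, SCD and FADS2 in each library by group, with the mean of the 2 libraries as a bar and symbols that separate the 2 sides of the libraries. The 2 DKO points lie below both WT points in each panel, and for FADS2 OGG1 knockout clone 22 lies between the DKO points.

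Exposure of WT cells to H2O2 was followed after 24 hours by lower levels of most of the set. Of the 31 genes, 27 were lower in both clones, against 31.6% of all genes, and 1, IDI1, was higher in both, against 34.0%. The median log2 fold change was -0.39, against 0.00 over the 16997 genes tested. The summed level of the 31 genes went from 7963 to 6197 CPM in clone 2 and from 6752 to 4666 CPM in clone 11. Treated and untreated libraries came from the same clones. A fit with clone as a block leaves 1 residual degree of freedom, so its P values rest mainly on a spread shared with other genes. With clone as a block, 18 members were lower at an unadjusted P of 0.05, against 10.5% of all genes, and 7 fell at an adjusted p of 0.05, against 1.39% of all genes. Without the block 9 were lower at that P, against 4.07% of all genes, and none had an adjusted p of 0.05 or less. For 16 members both treated libraries lay below both untreated ones, against 20.0% of all genes. These comparisons share their WT libraries with the comparisons of knockouts with WT, so their values stand side by side and are not independent.

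SREBF1 fell most. It went from 248 to 119 CPM in clone 2 and from 190 to 57.1 CPM in clone 11, so that both treated values lay below both untreated ones. Its log2 fold change was -1.40 with clone as a block (SE 0.16, adjusted p = 0.0007) and -1.33 without (SE 0.35, adjusted p = 0.638). It was the only member to meet the study's criterion, which 1.01% of all genes met as lower. Without treated clone 11 it no longer did, while without WT clone 11 INSIG1 met it too. SREBF2 went from 364 to 299 and from 340 to 217 CPM, with -0.47 under the block (SE 0.13, adjusted p = 0.0789). INSIG1 fell from 133 to 81.5 CPM and from 66.9 to 33.1 CPM, by 0.86 on the log2 scale under the block (SE 0.13, adjusted p = 0.00626). The treated value of its clone 2 lay above the untreated value of its clone 11, so its fall was seen within clones and not between the groups. SCAP had -0.39 under the block (SE 0.13, adjusted p = 0.136), and STARD4, a carrier of sterols between membranes, had -0.11 without it (SE 0.22), which did not pass.

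Fatty acid genes other than ACLY were lower with the block at an unadjusted P of 0.05, and 3 of them fell at an adjusted p of 0.05. FADS2 fell from 575 to 371 CPM in clone 2 and from 620 to 326 CPM in clone 11 (log2 fold change -0.78, SE 0.13, adjusted p = 0.00906). SCD went from 1380 to 929 and from 1114 to 663 CPM (-0.66, SE 0.13, adjusted p = 0.0186), and FADS1 from 323 to 214 and from 305 to 191 CPM (-0.64, SE 0.12, adjusted p = 0.0190). For all 3 genes both treated values lay below both untreated ones. FASN went from 1482 to 1201 and from 1174 to 843 CPM (-0.39, SE 0.13, adjusted p = 0.117). ELOVL6, an elongase of saturated fatty acids, had -0.42 (SE 0.12, adjusted p = 0.0881) and ACACA, the acetyl-CoA carboxylase, -0.31 (SE 0.12, adjusted p = 0.187). ACLY stayed at 475 and 468 CPM in clone 2 and at 420 and 410 CPM in clone 11.

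From squalene to cholesterol, all 10 genes had a log2 fold change below 0, and 6 passed an unadjusted P of 0.05 with the block: SQLE, LSS, TM7SF2, MSMO1, EBP and DHCR7. DHCR7, which makes cholesterol from its last precursor, fell from 191 to 139 CPM in clone 2 and from 177 to 106 CPM in clone 11 (-0.61, SE 0.13, adjusted p = 0.0286). MSMO1 fell from 126 to 87.4 and from 92.8 to 60.8 CPM (-0.58, SE 0.12, adjusted p = 0.0296). SQLE went from 239 to 202 and from 221 to 134 CPM (-0.49, SE 0.14, adjusted p = 0.0846). In this group clone 11 had the larger fall for 9 of 10 genes, with medians of -0.60 in clone 11 and -0.23 in clone 2. NSDHL was nearly level, at -0.07 in clone 2 and -0.01 in clone 11.

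The mevalonate genes had the smallest median change of the 4 roles, -0.23. MVD went from 81.9 to 62.1 CPM in clone 2 and from 58.2 to 37.6 CPM in clone 11 (-0.52 with the block, SE 0.13, adjusted p = 0.0535). MVK went from 41.2 to 33.9 and from 27.6 to 19.4 CPM (-0.40, SE 0.14, adjusted p = 0.143). HMGCS1 went from 317 to 278 and from 195 to 167 CPM, which did not pass (-0.21 without the block, SE 0.32). IDI1 stood at 160 and 161 CPM in clone 2 and at 97.3 and 104 CPM in clone 11. ACAT2, the cytosolic thiolase of the first step, and PMVK lay at 0.00 and -0.05 without the block. Clone 11 had the larger fall for 3 of 8 mevalonate genes (HMGCS1, MVK and MVD).

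Over all 31 genes, clone 11 had the larger fall for 25, with medians of -0.48 in clone 11 and -0.28 in clone 2, and this difference between clones rests on 1 library per clone and condition. Without a block, the median of the 31 genes was -0.25 when treated clone 11 was left out and -0.54 when treated clone 2 was. Fewer members passed an unadjusted P of 0.05 without treated clone 11, and more without WT clone 11. Shares of all genes in those fits were not computed. The share of mitochondrial counts was also lower after H2O2, at 3.38% against 5.02% in clone 2 and 2.995% against 5.14% in clone 11, and its part in the result was not tested.

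**Figure D4:**
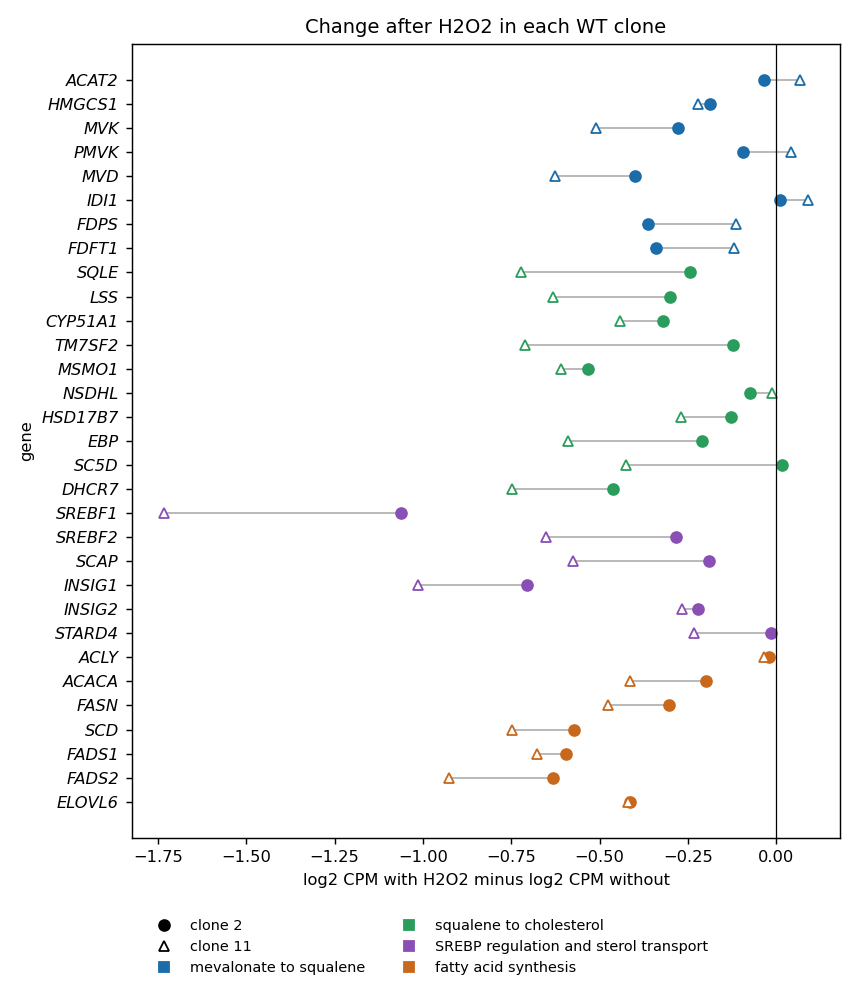
Log2 CPM with H2O2 minus log2 CPM without (horizontal axis) for each of the 31 genes in WT clone 2 (circles) and WT clone 11 (open triangles), 1 library per clone and condition. SREBF1 lies farthest left, at -1.06 and -1.73, and ACLY, NSDHL, IDI1, ACAT2 and PMVK lie near 0.

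Other genes of the pathway were read from 3 lists. Of 9 genes of SREBP processing and sterol-dependent degradation, 8 were tested, and none passed an unadjusted P of 0.05 in any comparison of genotypes. With clone as a block, SPRING1, which is needed for SREBP activation, was higher after H2O2 at an unadjusted P of 0.05 (0.41, SE 0.13, adjusted p = 0.108). At that P 9.61% of all genes were higher. SPRING1 stood at 90.0 against 73.5 CPM in clone 2 and 119 against 81.5 CPM in clone 11. Of 11 other SREBP targets none differed in DKO against WT without the sides as a block. With it MMAB, a cobalamin enzyme gene that shares its promoter with MVK, was lower (-0.36, SE 0.11, adjusted p = 0.580), as 3.37% of all genes were. After H2O2 5 of these 11 were lower with the clone block (ACSS2, ACSL3, ELOVL5, PNPLA3 and SLC25A1), against 10.5% of all genes. ME1, the cytosolic malic enzyme, was higher with that block (0.46, SE 0.14, adjusted p = 0.0988), as 9.61% of all genes were. Of the 5, ACSL3, a long-chain acyl-CoA synthetase, passed adjustment (-0.53, SE 0.12, adjusted p = 0.0404), as 1.39% of all genes did as lower.

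Of 10 genes of sterol efflux, uptake and storage, 9 were tested. These include ABCA1, the cholesterol exporter that the sterol-sensing LXR receptors switch on. ABCA1 fell from 16.0 to 11.3 CPM in clone 2 and from 20.1 to 6.47 CPM in clone 11 after H2O2 (-1.06 with the block, SE 0.24, adjusted p = 0.0378). LPCAT3, a phospholipid acyltransferase that LXR also switches on, was lower after H2O2 (-0.63 with the block, SE 0.18, adjusted p = 0.0913) and in DKO against WT (-0.57, SE 0.22). EMG1, on the other strand, overlaps 66.0% of the exon bases of LPCAT3, so its values are uncertain. SOAT1, which esterifies cholesterol for storage, passed an unadjusted P of 0.05 as lower in OGG1 knockout than in WT (-0.96, SE 0.32), at 127 and 72.8 CPM against 216 and 176 CPM. NPC2, a lysosomal cholesterol carrier, was lower at that P in DKO than in OGG1 knockout (-0.49, SE 0.19). At an unadjusted P of 0.05, 10.5% of all genes were lower after H2O2 with the clone block and 1.11% in DKO against WT. The shares were 1.35% in OGG1 knockout against WT and 1.02% in DKO against OGG1 knockout. None of the genotype differences of these lists had an adjusted p of 0.05 or less.

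Differences between the clones of a genotype ran in different directions in the early and late genes of cholesterol synthesis. The clones were set against each other across the 2 sides of the libraries, as WT 2 minus 11, MUTYH knockout 8 minus 7, OGG1 knockout 22 minus 1 and DKO 14 minus 4. Mevalonate genes were higher in the first clone for 8 of 8 genes in WT, 8 of 8 in MUTYH knockout, 7 of 8 in OGG1 knockout and 7 of 8 in DKO, with median differences of 0.63, 0.13, 0.37 and 0.18. Genes from squalene to cholesterol were higher in the first clone for 7 of 10 in WT but for 1, 2 and 1 of 10 in the knockouts, with medians of 0.11, -0.44, -0.42 and -0.33. Fatty acid genes went the way of the later sterol genes, at 5 of 7 in WT and 1, 1 and 0 of 7 in the knockouts. Over all genes tested these shares were 49.98% to 51.3%. ACAT2, HMGCS1, PMVK, IDI1, FDPS and FDFT1 were higher in the first clone in all 4 genotypes, as were HSD17B7, INSIG1 and STARD4. TM7SF2, EBP, SC5D, SCAP, ACACA and FADS2 were lower in all 4. The share of all genes that went the same way in all 4 genotypes was not computed. These clone differences are descriptions of 8 libraries, with 1 library per clone and no test. The sides that set the order of the clones were found in these same libraries. Agreement in direction between genotypes may therefore be partly built in.

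**Figure D5:**
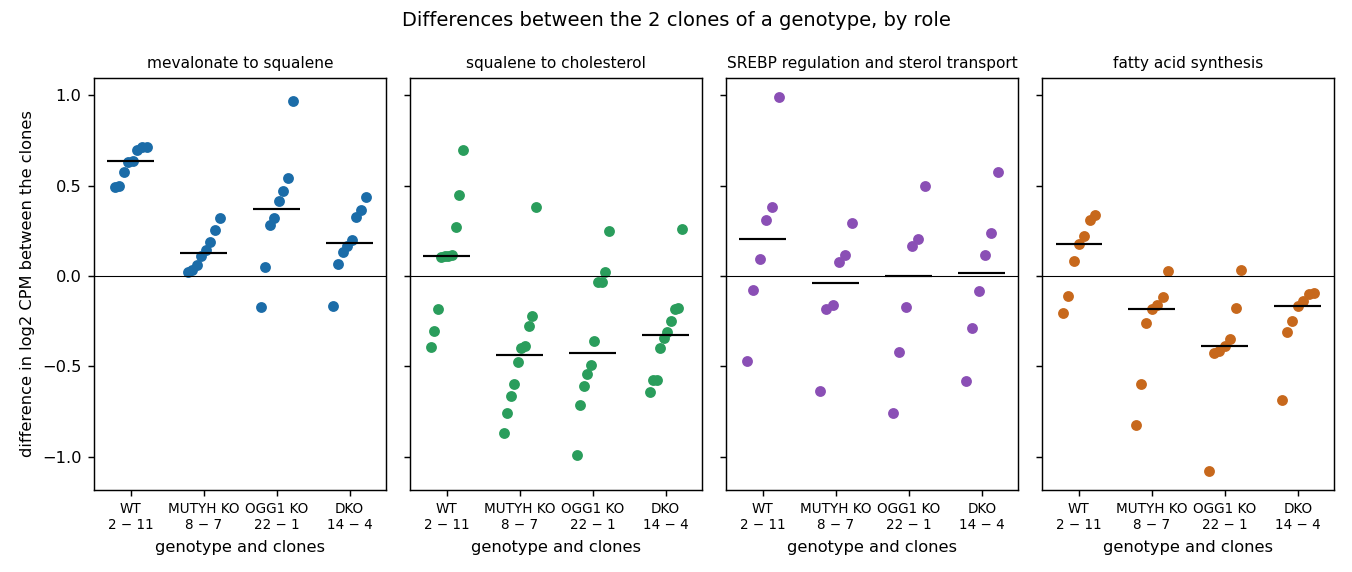
Difference in log2 CPM between the 2 clones of each genotype for the genes of each role (points) with the median (bar). The order of the clones follows the 2 sides, which were found in these same libraries. Mevalonate genes lie above 0 in nearly every case, while genes from squalene to cholesterol lie mostly below 0 in the 3 knockouts.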

How the data were processed

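Total RNA of 10 HAP1 libraries was sequenced on the DNBseq platform. Per the study's methods and the labels, the authors aligned reads to GRCh38 with HISAT2 2.2.1 and counted them per Ensembl gene with featureCounts of Rsubread. The strand setting is not given in the sources used here. The deposited values are whole-number read counts per gene, not normalized. The 2 untreated WT columns that both tables hold were identical and were used once.

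The 31 genes and the other lists were chosen with earlier results of these data known. Counts were fitted in R 4.3.3 with edgeR 4.0.16 (TMM factors 0.970 to 1.02, filterByExpr, quasi-likelihood F test with legacy=TRUE, two-sided), adjusting p over all genes tested. The 8 untreated libraries shared 1 fit with 17881 genes and 4 residual degrees of freedom, and the 4 WT libraries another with 16997 genes and 2. The study's criterion for a differentially expressed gene was P up to 0.05 with a log2 fold change over 1 in size. Log2 CPM used a prior count of 2. P values of fits without a block rest on the spread between the 2 clones of a group, pooled over all groups of the fit. With clone as a block, which leaves 1 residual degree of freedom, they rest mainly on a spread shared with other genes. How unlike the change was in the 2 clones counts for less. With the sides as a block they rest on the spread left after the sides. In every fit the spread of a gene is also drawn toward that of other genes. Numbers of reads cover counting error only. The clone pairs of treated and untreated WT come from the same clones, and their clone differences correlated across 16997 genes (Pearson r = 0.680), so a fit that blocks on clone, which leaves 1 residual degree of freedom, is given as well. The sides of the untreated libraries, as a block, left 3 residual degrees of freedom. They were found in the same libraries, so P under that block may be too small in every comparison of genotypes. Simulated data without clone or side effects were put through some of the fits. They covered DKO against WT, and H2O2 with and without the clone block. Other comparisons and the fit with the sides as a block were not simulated.

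Named with values were SREBF1, SREBF2, INSIG1, HMGCS1, SQLE, FASN and SCD, the 3 members with the smallest P per comparison, members meeting a call and those with the largest and smallest SD per role. Other genes named were chosen after their values were seen. Positions and exon lengths are from GENCODE v44, a different release from the one counted, on GRCh38. The 21 promoter sites taken from RefSeq matched the genome at their coordinates. Alternatives were DESeq2 1.42.0 (size factors or Wald test), edgeR's newer method (legacy=FALSE), unfiltered genes, 10 counts or more required in each library, only the groups compared, all 10 libraries in 1 fit, the blocks, and leaving out each library.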

Additional observations from a re-analysis of the deposited data

How the results depend on the processing

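Medians of the 31 genes moved by less than the SD between clones (0.18 on the log2 scale) under each alternative tried. Leaving out 1 library at a time gave medians of -0.20 to 0.05 for MUTYH knockout, -0.30 to -0.03 for OGG1 knockout, -0.57 to -0.27 for DKO, -0.36 to -0.18 for DKO against OGG1 knockout and -0.54 to -0.25 for H2O2. The number of members lower at an unadjusted P of 0.05 then ranged from 0 to 3, 0 to 6, 2 to 14, 0 to 5 and 3 to 14, the number meeting the study's criterion was 0 for both single knockouts, 0 to 4 for DKO, 0 to 1 for DKO against OGG1 knockout and 0 to 2 for H2O2, and the number with any genotype difference ranged from 1 to 7. With 1 library left in a group, that library is assumed to vary like the others. Leaving out a library could not be combined with the clone block, which then has no residual degrees of freedom. With the sides of the libraries as a block, the numbers lower at that P were 3 for OGG1 knockout, 19 for DKO and 11 for DKO against OGG1 knockout, 13 members differed among genotypes and 1 had P of at most 0.05 for the added contrast. Clone as a replicate block, which the pairing of treated with untreated WT calls for, raised the members lower after H2O2 from 9 to 18 and those with an adjusted p of at most 0.05 from 0 to 7. DESeq2 gave 1 such member for DKO (MVD) and 3 for H2O2 (FADS2, FADS1 and SREBF1). Of 231 values of single genes under alternatives, 191 kept P of at most 0.05, 40 lost it and none changed sign. The cause of these shifts was not tested. With 2 clones per group, smaller differences than those named could not be told from the spread between clones.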

Other observations

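The difference between DKO and OGG1 knockout and the change after H2O2 have no library in common. Across the 31 genes the fitted log2 fold changes of the 2 comparisons had a Pearson r of 0.748 and a Spearman rho of 0.661, against 0.274 and 0.348 across the 16864 genes tested in both and 0.409 and 0.442 across the 10709 of them at least as abundant as the lowest of the 31. SREBF1, INSIG1 and FADS2 were among the 4 lowest members in both, and ACLY, PMVK and NSDHL were near 0 in both. These are correlations across genes, which are not independent replicates, and this comparison was added after the data were seen. The part of abundance in these values was not tested beyond the last pair.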
